A study of Mus musculus with 12 samples.

Results

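Semaphorins, the plexins that bind them and the neuropilins were followed across the pituitary arrays by name. The array carries 45 probes for 31 of these genes, among 39429 probes with 30175 gene names in all, namely 29 probes for 20 semaphorins, 13 for 9 plexins and 3 for both neuropilins. The set was drawn up around Plxna4, the gene for plexin A4, because its signal was low in the early life group against the peripubertal group. The values of Plxna4 in that contrast are therefore a description with no test, and the question is whether the other receptors and the ligands share its difference. The RNA came from minced pituitaries of 12 adult C57BL/6J females aged 2 months. Controls ate a normal diet, the early life group ate a VD-deficient (vitamin D-deficient) diet in early life alone, and the peripubertal group ate it around puberty alone, and each of the 3 groups had 4 mice. No allele or transgene is named in the labels of any group. The ages that bound each window are not given in the sources used here.

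Semaphorins are guidance proteins, secreted in class 3 and held at the cell surface in classes 4 to 7. They bind plexins, whose inner part acts on small GTPases such as Rap and R-Ras and so loosens adhesion and the cytoskeleton, while class 3 members mostly need a neuropilin as co-receptor. The family is best known from axon growth, including that of the hypothalamic neurons that release GnRH, and from blood vessels, where neuropilin 1 also binds VEGF and plexin D1 binds Sema3E.

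Each probe is 60 bases long, and 45 of 45 gene names were found in the RefSeq reference table (GRCm38.p6), 39 of them also through the transcript accession. The first 30 bases of the probes on which the results turn are given as they stand in the scanner files, 5′ to 3′, so that it is clear which stretch of a transcript each value reads. Positions are those of build mm9 per the file headers. Capitals mark a run of alternating G and T, present in the shown bases of the Sema4c probe alone.
Plxna4 A_52_P661: ctcaccttgaataccaaccttttgaaagaa
Plxna4 A_52_P650037: gaaactggcttacaaactagaacaagtcat
Plxna2 A_51_P229602: catgtacctattgtaaatatgaaactccta
Plxna2 A_66_P138999: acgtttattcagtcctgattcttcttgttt
Plxnd1 A_52_P472319: agggaatttctgcttcagccaccaagcagt
Plxnd1 A_55_P2151822: aggggaaggctgggactctctggaacattc
Nrp1 A_51_P469285: ttgtggatggtgtaaagttgaaaaaagata
Sema6b A_55_P1973854: tgaaaagaagcccaggggatggggccttca
Sema4c A_55_P1953866: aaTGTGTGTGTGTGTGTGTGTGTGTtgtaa
The Plxna4 probe A_52_P661 lies at chr6:32094602-32094661 on the minus strand and starts at base 12483 of its transcript. The other Plxna4 probe lies at chr6:32100484-32100543 and starts at base 6601 of the same transcript. The first Plxna2 probe lies at chr1:196642958-196643017, whereas the second is placed at chr13:82317719-82317778, although the reference table has Plxna2 on chromosome 1. It was the only member probe whose chromosome differed from that of its gene. The Plxnd1 probes lie at chr6:115905315-115905374 and chr6:115904829-115904888, the Nrp1 probe at chr8:131026650-131026709, the Sema6b probe at chr17:56262769-56262828 and the Sema4c probe at chr1:36605998-36606057. Whether a probe lies in coding or untranslated sequence was not annotated here.

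Each of the 6 arrays held 2 mice of the same group in different dyes. The 2 control arrays shared 1 slide and scan session and the other 4 arrays shared a second one. In comparisons with control, diet and slide thus cannot be told apart. The share of spots well above background was 61.0% to 66.3% in control, 50.6% to 59.7% in early life and 57.9% to 67.2% in peripubertal samples, and spots marked as outliers made up 1.68% to 1.90%, 6.54% to 7.34% and 3.85% to 5.08% of the arrays of these groups. The labels of the deposited value table and of the scanner files disagree. For the deficient mice, 8 of 8 table columns equal, up to a constant shift, a channel that the scanner files give to the opposite group. The 4 control columns of the value table equal no scanned channel. Group names here follow the scanner files, and under the table's labels every early life value would be a peripubertal value and the reverse. Gh ranked between 1 and 11 in brightness in the 10 samples that measured it, and Pomc between 1 and 183 in 12. Of the member probes, 35 for 29 genes were kept, having a signal well above background in 4 or more of 12 channels. The 10 probes not kept were above it in 0 to 2 channels, 7 of them in 0, and they left Sema3d and Plxnb3 with no kept probe. A value was missing in at least 1 sample for 6 kept probes, because an outlier mark removes the spot for both mice of an array.

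The family as a whole was split between lower and higher signals in early life against peripubertal glands. Of the 34 member probes with an estimate, 19 were lower and 15 higher in early life, with a median log2 difference of -0.10, beside 47.7% lower and a median of 0.02 over all 23576 probes. The member median had the other sign without the array of peripubertal 3 and 4 (0.07, with 16 of 33 lower). All probes then had a median of 0.02 with 47.8% lower. It was also above 0 with marked spots dropped before scaling (0.09, with 12 of 34 lower). That setting moved all probes too, to a median of 0.17 with 31.1% lower, so the member median stayed below that of all probes. Without early life 3 the member median was 0.00 with 17 of 34 lower. Plxna4 passed the threshold (adjusted p under 0.05 in limma's moderated test), which its choice fixes, and none of the other 33 did, where 0.39% of all probes passed. Among these 33, 18 were lower, the median was -0.08, the smallest adjusted p was 0.0639, and 6 had an unadjusted p under 0.05, against 20.2% of all probes. By role, 11 of 21 semaphorin probes were lower with a median of -0.05, 4 of 9 plexin probes other than Plxna4 with a median of 0.07, and 3 of 3 neuropilin probes with a median of -0.21. Plxna4 again left out, the measured values of the groups did not overlap for 5 lower and 2 higher member probes, together 21.2% of the 33. Over all probes this held for 21.6%, with 9.93% lower and 11.6% higher. The 2 higher members were the Plxna2 probe placed on chromosome 13 and a dim Sema6d probe, well above background in 5 of 12 channels. A difference of at least 0.5 was seen for 5 lower members and 1 higher member of the 33, where 8.36% and 8.93% of all probes were that far down and up. The higher member was the same Plxna2 probe.

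**Figure D1:**
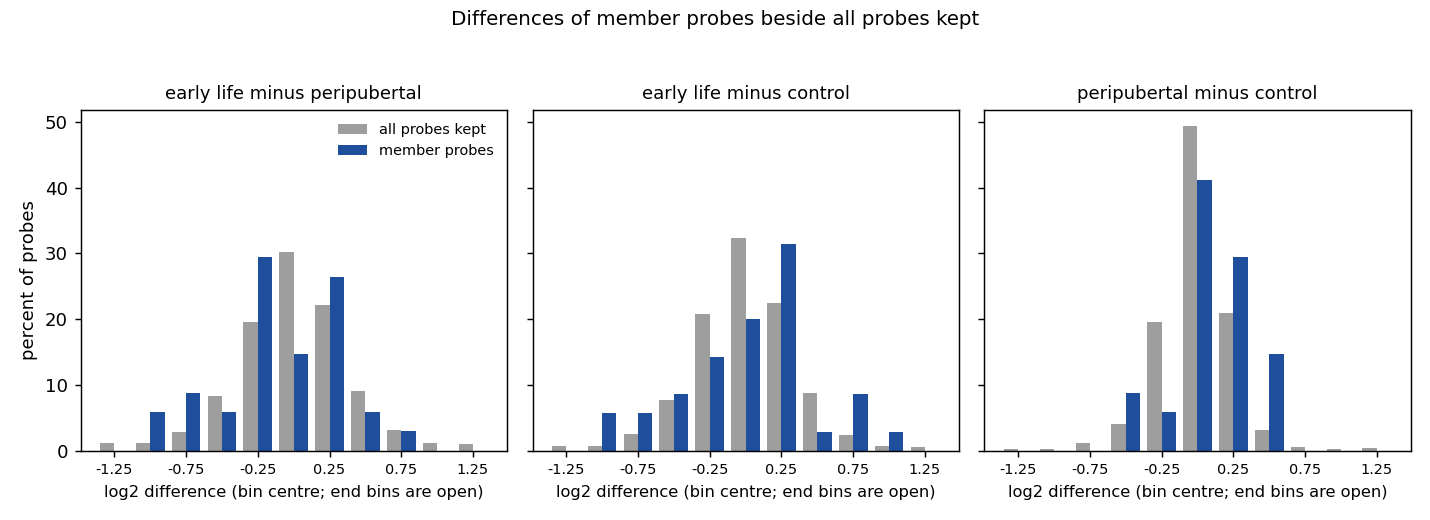
Share of probes (percent, vertical axis) by size of the log2 difference (horizontal axis, bins 0.25 wide with open ends) in the 3 comparisons, for all kept probes (grey) and member probes (blue). In early life minus peripubertal the members spread to both sides of 0, with 19 lower and 15 higher.

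Plxna4 codes for a plexin that acts with neuropilin 1 as a receptor for Sema3A and binds Sema6A and Sema6B directly. Its scaled log2 signal was 10.08, 9.93, 9.81 and 9.79 in early life mice 1 to 4. In the peripubertal mice it was 11.04, 11.09, 10.78 and 11.07, and in control mice 1 and 2 it was 10.67 and 10.84, with no value in controls 3 and 4. All 4 early life values lay below all 6 others, and the peripubertal values overlapped those of control. The mean was 9.90 ± 0.14 (SD, n = 4) in early life, 10.99 ± 0.14 (n = 4) in peripubertal and 10.76 ± 0.12 (n = 2) in control samples. The log2 difference of early life from peripubertal was -1.09 with an SE of 0.14, a signal 2.13-fold lower. From control it was -0.85 with an SE of 0.17, and peripubertal minus control was 0.24 with an SE of 0.17. Leaving out either early life array gave -0.99 and -1.20, so both arrays of the group had the low signal. The spot lies in the first column of the array, and the dim spots around it deviated by -0.06 to 0.10 from the same place on the other arrays. The second Plxna4 probe was well above background in 0 of 12 channels, so a single probe carries the difference.

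**Figure D2:**
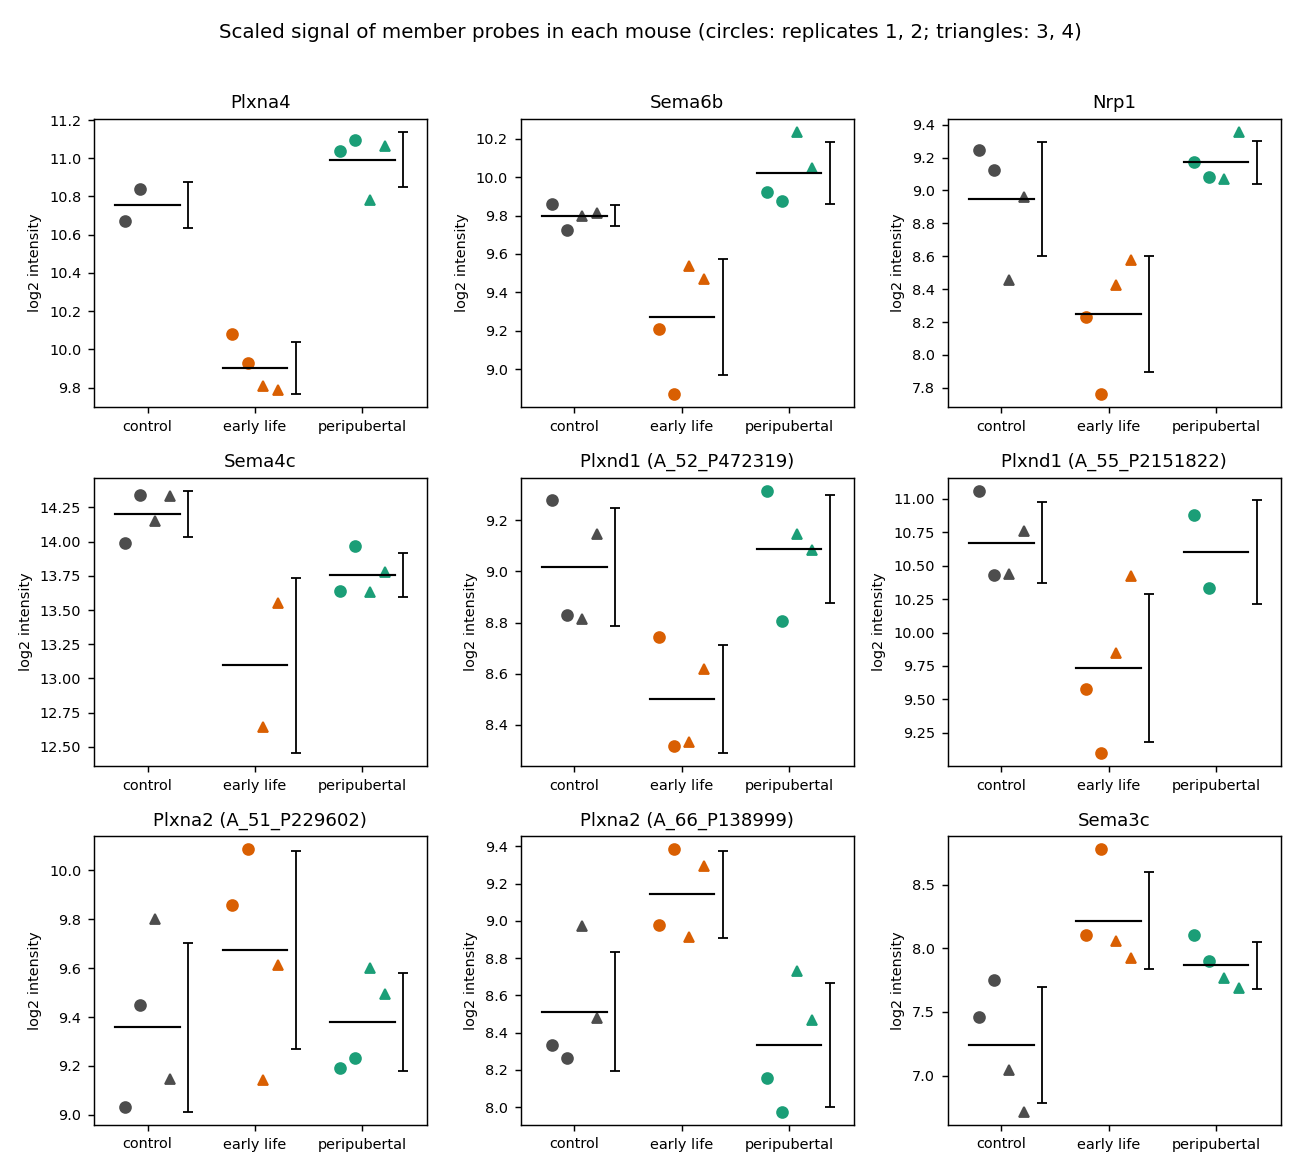
Scaled log2 intensity (vertical axes, each with its own range) of 9 member probes in each mouse, by group, where circles are replicates 1 and 2, triangles replicates 3 and 4, lines group means and bars ± 1 SD. Plxna4 is low in all 4 early life mice, from 9.79 to 10.08. Sema6b and Nrp1 are also below every peripubertal value in all 4 early life mice, and are lowest in early life 2.

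Plxna1, Plxna2 and Plxna3 had differences of the opposite sign to that of Plxna4, none of which passed. Plxna1, a receptor for class 3 and class 6 semaphorins, had 10.02, 10.20, 9.78 and 10.01 in early life and 9.71, 9.70, 9.81 and 9.70 in peripubertal samples, a difference of 0.27 with an SE of 0.12 (adjusted p = 0.250). Its groups overlapped through peripubertal 3 and early life 3. Plxna2, which binds Sema6A and, with a neuropilin, class 3 ligands, had a difference of 0.29 with an SE of 0.26 on the probe on chromosome 1, where the gene lies, and its groups overlapped. The probe of that name placed on chromosome 13 gave 8.98, 9.38, 8.91 and 9.29 in early life against 8.16, 7.98, 8.73 and 8.47 in peripubertal samples, without overlap, and 8.33, 8.26, 8.97 and 8.48 in control. Its difference of 0.81 with an SE of 0.24 did not pass (adjusted p = 0.123). Whether this probe reads Plxna2 was not tested. Plxna3, measured in 2 mice of each deficient group, differed by 0.07 with an SE of 0.28.

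Among the remaining plexins, plexin D1 was the only one with 2 kept probes, and both were lower. This receptor of Sema3E is known from endothelial cells. Probe A_52_P472319 gave 8.74, 8.32, 8.33 and 8.62 in early life and 9.32, 8.81, 9.15 and 9.08 in peripubertal samples, without overlap, and 9.28, 8.83, 8.81 and 9.15 in control. Probe A_55_P2151822 gave 9.58, 9.10, 9.84 and 10.42 in early life, 10.88 and 10.33 in peripubertal 1 and 2, and 11.06, 10.43, 10.44 and 10.76 in control. Early life 4 lay within the peripubertal range on that probe. The differences were -0.59 with an SE of 0.20 (adjusted p = 0.155) and -0.87 with an SE of 0.40 (adjusted p = 0.260), and neither passed. Plxnb1, the receptor of Sema4D, differed by 0.32 with an SE of 0.16. Plxnb2, a receptor of class 4 ligands, differed by -0.15 with an SE of 0.13, and Plxnc1, the receptor of Sema7A, by -0.13 with an SE of 0.22. For all 3 the values of the groups overlapped.

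Nrp1, the co-receptor that pairs with plexin A4 for Sema3A and also binds VEGF, was the neuropilin with the larger difference. It gave 8.23, 7.76, 8.43 and 8.58 in early life, 9.17, 9.08, 9.07 and 9.36 in peripubertal samples and 9.24, 9.13, 8.46 and 8.96 in control. Early life lay wholly below peripubertal and overlapped control through control 3. The difference from peripubertal was -0.92 with an SE of 0.23, a signal 1.89-fold lower that did not pass (adjusted p = 0.102). Without the array of early life 3 and 4 it was -1.17 (adjusted p = 0.0181), and without that of early life 1 and 2 it was -0.67 (adjusted p = 0.187). Nrp2, which binds Sema3F and VEGF-C, differed by -0.21 with an SE of 0.27 and by -0.16 with an SE of 0.18 on its 2 probes, with overlap on both.

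Endothelial cells are known to make Nrp1 and Plxnd1, and all 9 markers of that cell type were kept by the filter. In early life minus peripubertal 5 of the 8 with an estimate were lower, with a median of -0.35, and 0 passed. Esam, a junction protein, differed by -0.65 with an SE of 0.21, Tek, the angiopoietin receptor, by -0.65 with an SE of 0.22, and Kdr, the main VEGF receptor, by 0.76 with an SE of 0.35. The mean level of the list, relative to its average over all samples, spanned -0.51 to 0.18 in early life, -0.16 to 0.28 in peripubertal and -0.16 to 0.39 in control samples. All 7 macrophage markers (median -0.64) and all 4 kept red cell markers (median -2.05) were lower as well, and 0 of either passed. Red cell levels spanned -1.65 to 0.08 in early life and, without overlap, 0.37 to 1.83 in peripubertal samples, and -1.19 to 1.32 in control. Macrophage levels spanned -0.61 to 0.13, -0.24 to 0.67 and -0.39 to 0.47 in the same order. Neuron markers, of a cell type in which Plxna4 is known, were higher for 5 of 7 with a median of 0.47, and 0 passed. Their level spanned -0.13 to 0.56 in early life, -0.43 to -0.01 in peripubertal and -0.28 to 0.09 in control samples. Snap25 and Syt1 of this list were bright, with early life means of 14.65 and 13.47. Whether they mark neurons alone in this gland was not tested. Myelin markers, of the glia around axons, were higher for 6 of 6 with a median of 0.29, and 0 passed. Their level spanned -0.14 to 0.53, -0.20 to -0.02 and -0.20 to 0.09 in the same order. Markers of pituicytes and astrocytes, the glia of the posterior lobe and the brain, were higher for 4 of the 5 kept with a median of 0.27, and 0 passed. Their level spanned -0.23 to 0.31, -0.21 to 0.27 and -0.13 to -0.01. The part of these cell types in the values of the members was not tested, and in bulk tissue fewer cells of a type and less RNA per cell cannot be told apart.

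**Figure D3:**
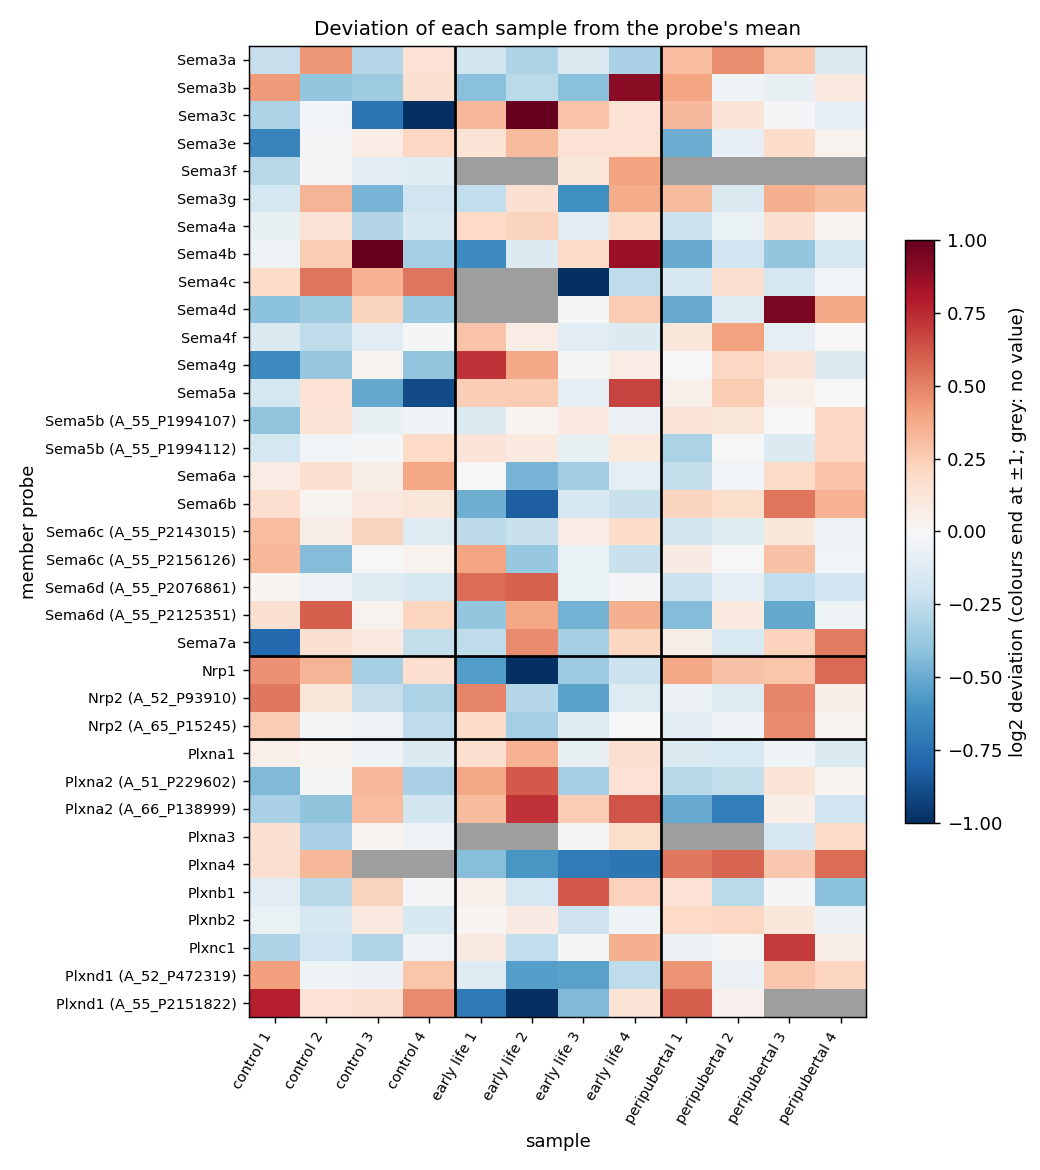
Log2 deviation of each of the 12 samples (columns) from the mean of the probe (rows, 35 kept member probes grouped by role), blue below and red above, grey without a value. The Plxna4, Sema6b and Nrp1 rows are blue in all 4 early life mice, as are those of Sema3a and Plxnd1 (A_52_P472319). The Sema6b and Nrp1 rows are darkest in early life 2, and most other rows change sign within a group.

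Of the ligands, the class 6 member Sema6b stood nearest to Plxna4. Sema6b codes for a membrane-bound ligand of plexin A4. Its signal was 9.21, 8.87, 9.54 and 9.47 in early life, 9.92, 9.88, 10.24 and 10.05 in peripubertal samples and 9.86, 9.73, 9.80 and 9.82 in control. Early life lay below both other groups, and the peripubertal values lay above all 4 controls. The difference from peripubertal was -0.75 with an SE of 0.15, 1.68-fold lower, and did not pass (adjusted p = 0.0639). It was -0.98 without the array of early life 3 and 4 (adjusted p = 0.00501) and -0.52 without that of early life 1 and 2 (adjusted p = 0.105). The other class 6 probes did not go together. Sema6a, a ligand of plexins A2 and A4, differed by -0.28 with an SE of 0.18, and the Sema6c probes by 0.00 and -0.16. Sema6d, a ligand of plexin A1, had differences of 0.45 with an SE of 0.16 (adjusted p = 0.175) and 0.19 with an SE of 0.15 on its 2 probes. The first of these, A_55_P2076861, was well above background in only 5 of 12 channels, 2 in early life, 1 in peripubertal and 2 in control samples. On it early life was 7.66, 7.68, 7.03 and 7.08 and peripubertal 6.88, 7.01, 6.85 and 6.90, so the groups did not overlap, although early life 3 and 4 came close to the peripubertal values.

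The secreted class 3 ligands, which act through neuropilins, were split. Sema3a, the main ligand of the plexin A4 and neuropilin 1 complex, was 8.49, 8.37, 8.53 and 8.36 in early life and 8.98, 9.14, 8.95 and 8.53 in peripubertal samples. The groups did not overlap by a narrow margin, with early life 3 and peripubertal 4 both at 8.53, and controls ran from 8.40 to 9.11. The difference was -0.46 with an SE of 0.22 (adjusted p = 0.261). Sema3b and Sema3g differed by -0.14 and -0.29, and Sema3c and Sema3e by 0.35 and 0.27, each with overlap. Sema3f, the ligand of neuropilin 2, had no value in any peripubertal sample and was 11.82 to 12.09 in control and 12.23 and 12.50 in early life 3 and 4.

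In class 4, Sema4c, a ligand of plexin B2, was the one member with no overlap. It had 12.64 and 13.55 in early life 3 and 4, no value in early life 1 and 2, and 13.64, 13.97, 13.63 and 13.78 in peripubertal samples. All 4 controls were higher still, at 13.99, 14.34, 14.15 and 14.34. The difference of early life from peripubertal was -0.66 with an SE of 0.21 (adjusted p = 0.152). In its only probe, 23 of the 30 bases shown are the run of alternating G and T. Whether that probe reads Sema4c alone was not tested. The remaining class 4 differences ran from -0.08 for Sema4f to 0.38 for Sema4b, whose SE was 0.42. Sema5a differed by 0.18 with an SE of 0.25, and Sema7a, a ligand anchored in the membrane by a lipid, differed by -0.14 with an SE of 0.27. No difference is given for Sema5b, whose probes were well above background in 5 and 4 of 12 channels, the first in 0 of 4 early life samples.

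**Figure D4:**
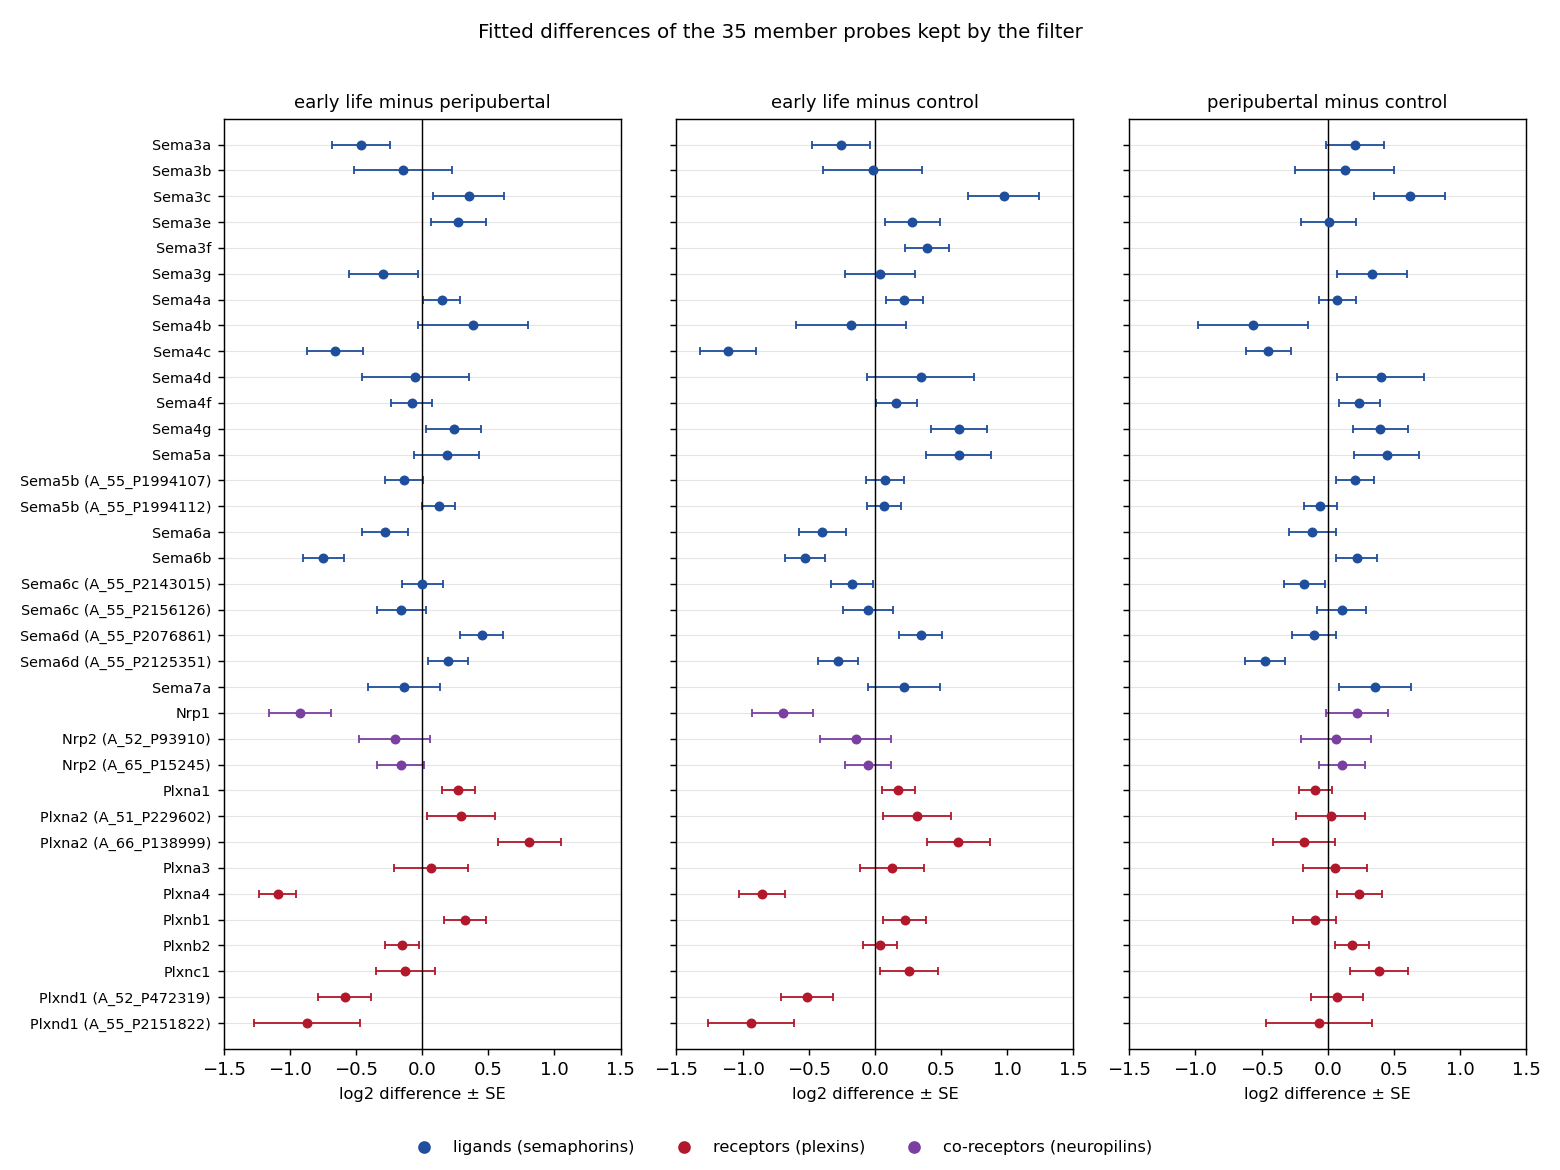
Fitted log2 difference (horizontal axes) with its SE for the 35 kept member probes (rows) in the 3 comparisons, coloured by role, with 0 marked by a line. Plxna4, Nrp1, Plxnd1, Sema4c and Sema6b lie below 0 in early life minus peripubertal and in early life minus control. So do Sema3a, Sema3b, Sema6a, Nrp2 and Sema6c (A_55_P2156126). Both comparisons share the early life samples.

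Genes that carry semaphorin signals inside and beside the receptor did not pass either. Of 56 signalling partners (GTPases, kinases, scaffolds, collapsin response mediators, alternative co-receptors and sheddases), 52 had an estimate in early life minus peripubertal, 29 lower and 23 higher, with a median of -0.04. Among them 0 passed by limma, and 10 had an unadjusted p under 0.05, 19.2% beside the 20.2% of all probes. Fyn, a Src-family kinase that phosphorylates class A plexins, averaged 9.50 in early life and 8.37 in peripubertal samples, a difference of 1.13 with an SE of 0.24 (adjusted p = 0.0695). Rap1b, a GTPase that plexins switch off, differed by 0.56 with an SE of 0.14, Ranbp9, a scaffold that binds plexin A, by 0.68 with an SE of 0.18, and Flt4, the receptor of VEGF-C, by -0.57 with an SE of 0.14. Flt4 was dim, with a mean of 7.17 in early life. The lowest signals well above background in those samples were 7.10 to 7.76. Of 30 genes of the slit, netrin and ephrin families with an estimate, 16 were higher and 14 lower with a median of 0.05, 5 had an unadjusted p under 0.05, 16.7% beside the same 20.2%, and 0 passed. The smallest adjusted p was 0.0527, for Efna1, an ephrin of endothelial cells, with a difference of -0.88 and an SE of 0.17.

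Against control, the early life group showed no member past the threshold, where 0.0968% of all 23753 probes passed. Plxna4 is left out of the counts, because the same early life samples chose it. Of the other 34 member probes 20 were higher and 14 lower, with a median of 0.07, beside 48.8% lower and a median of 0.01 over all probes, and 10 had an unadjusted p under 0.05 by limma, 29.4% beside 17.1% of all probes. Groups did not overlap for 2 higher and 5 lower members, together 20.6%. Over all probes this held for 14.8%, with 7.33% higher and 7.48% lower. The lower ones were both Plxnd1 probes, Sema4c, Sema6a and Sema6b, and the higher ones Sema3c and Sema3f. Sema4c averaged 13.10 ± 0.64 (SD, n = 2) against 14.20 ± 0.17 (n = 4) in control, a difference of -1.11 with an SE of 0.21 (adjusted p = 0.0887). Sema3c, a ligand that acts through both neuropilins, was 8.11, 8.78, 8.06 and 7.92 in early life and 7.46, 7.75, 7.04 and 6.72 in control. All 4 early life values lay above the controls, and the difference was 0.97 with an SE of 0.27 (adjusted p = 0.146). The controls were dim on this probe, well above background in 3 of 4. The other Sema3c probe was well above background in 0 of 12 channels. Sema6b differed by -0.53 with an SE of 0.15 (adjusted p = 0.160), Nrp1 by -0.70 with an SE of 0.23 (adjusted p = 0.197), and the Plxnd1 probes by -0.52 and -0.94. Sema4g, like Sema4c a ligand of plexin B2, went the other way, at 9.30, 8.97, 8.58 and 8.66 against 7.95, 8.21, 8.62 and 8.19, a difference of 0.64 with an SE of 0.21 (adjusted p = 0.194). The endothelial list was lower for 7 of 8 markers with a median of -0.27, and 0 passed.

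Of the signalling partners 0 of 52 passed against control and 10 had an unadjusted p under 0.05, 19.2% beside the 17.1% of all probes, with a median of 0.01. Those of smallest p were Ranbp9, with a difference of 0.73, Rap1b with 0.54 and the dim Flt4 with -0.57. Next came Gsk3b, a kinase downstream of Sema3A, with -0.82, measured in 2 early life mice. The adjusted p-values by limma were 0.126, 0.131, 0.131 and 0.135 in that order. Of the other guidance genes 0 of 30 passed and 6 had an unadjusted p under 0.05, 20.0%. When the array of early life 3 and 4 was left out, 7 of 31 members passed against control and 5 of 31 against the peripubertal group. Both counts include Plxna4. In all, 2723 and 3216 of at most 24605 kept probes passed. Besides Plxna4, Nrp1, Sema6b, Plxnd1 (A_55_P2151822) and the dim Sema6d probe (A_55_P2076861, well above background in 5 of 12 channels) passed in both, and Sema3c and Sema4g against control.

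In peripubertal minus control no member passed by limma, where 0.0207% of all 24206 probes passed, and 3 of 34 had an unadjusted p under 0.05 beside 4.98% of all probes. Of the 34, 23 were higher and 11 lower, with a median of 0.09, beside 49.7% lower and a median of 0.00 over all probes. Plxna4 is among the higher, and the same peripubertal samples were used to choose it. With it left out, 22 of 33 were higher and the median was 0.07. Without the array of peripubertal 3 and 4, and with Plxna4 counted, 17 of 33 were lower and the median was -0.02. Groups did not overlap for 1 higher and 1 lower member, together 5.88%, beside 3.5% higher, 5.57% lower and 9.07% together of all probes. These were Sema6b, higher by 0.22 with an SE of 0.15, and Sema4c, lower by -0.45 with an SE of 0.17 (adjusted p = 0.966). The smallest p belonged to Sema6d on probe A_55_P2125351, which was 9.80, 10.33, 9.73 and 10.19 in peripubertal and 10.38, 10.84, 10.27 and 10.45 in control samples, with overlap and a difference of -0.47 with an SE of 0.15 (adjusted p = 0.773). Sema3c differed by 0.62, Sema4g by 0.40 and Sema5a, a membrane-bound ligand with thrombospondin repeats, by 0.45, with overlap in each. Of 52 signalling partners 0 passed and 2 had an unadjusted p under 0.05, 3.85%. The partner of smallest p was Gsk3b, measured in 2 peripubertal mice, with -0.82 and an SE of 0.19 (adjusted p = 0.516), followed by Ptk7, a receptor-like kinase, with -0.78, Mical2, an actin-oxidising enzyme, with 0.28, and Flt1, a VEGF receptor, with 0.44. Of the 30 other guidance genes 0 passed and 4 had an unadjusted p under 0.05, 13.3%.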

How the data were processed

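The scanner files were deposited with the raw intensity of each spot and of its background, and with quality marks; per the file headers the software was Agilent Feature Extraction, version 11.0.1.1. The authors' deposited value table holds log2 values with column medians at 0; its processing is not given in the sources used here, and it served as an alternative. With limma 3.58.1 in R 4.3.3, background was corrected by normexp (offset 50), dyes by loess and arrays by Aquantile scaling. Control and outlier-marked spots had no weight in loess, and marked spots were then dropped. Spots of a probe were averaged, and 24605 of 39429 probes were kept. The model took group and dye as fixed effects, with a random array block (correlation 0.308, 8 residual and 3.47 prior degrees of freedom). Two-sided p-values were adjusted by Benjamini-Hochberg over all probes of a comparison, leaving out those with no value in one of the compared groups. The labels call the mice biological replicates. Lists of partners and markers used the probe of highest mean for each gene, which also chose the genes named per class, beside the 5 members (4 partners) of smallest p in each comparison and those whose groups do not overlap. Members and lists were chosen with earlier results of these data known. On data simulated with normal noise, 200 probes with a value in every sample were changed by 1 or 2 on the log2 scale. For early life minus peripubertal the fit recovered 73% of those changed by 1 and 91% of those changed by 2. Over both sizes, 12 of 176 calls were false. These shares are not the power for the member probes, since 6 kept ones lack values and real noise may differ. The number of arrays limits precision, and the median SE over all probes in that comparison was 0.19.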

Additional observations from a re-analysis of the deposited data

Results flagged for a closer look

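Within groups of 4 values, 1 sample stood far from the others of its group for 7 of 97 groups tested, where chance marks about 1 in 20. In peripubertal samples these were Plxna1, at 9.81 in replicate 3 against 9.70 to 9.71 in the others, and Sema3g (A_52_P312102), at 7.76 in replicate 2 against 8.20 to 8.26. In early life they were Sema3b, at 9.65 in replicate 4 with the nearest at 8.48, Sema5b (A_55_P1994112, well above background in 4 of 12 channels), at 7.04 in replicate 3 with the nearest at 7.21, Sema4a, at 9.89 in replicate 3 with the nearest at 10.18, and Sema3e, at 9.18 in replicate 2 with the others at 9.01. In control it was Sema4d, at 10.56 in replicate 3 with the nearest at 9.98. The difference of Plxna4 between the deficient groups, -1.09 on the log2 scale, is the value on which the set was chosen.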

How the results depend on the processing

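Grouping the value table's columns as it labels them turned the direction of early life minus peripubertal for the 5 named members: Plxna4 gave 1.16, Sema6b 0.88, Nrp1 1.07, Plxna2 (A_66_P138999) -1.04 and Sema4c 0.75, with 0 members and 96 probes past the threshold. The other alternatives that gave a value kept the direction of these 5. Sema4c had no value without the array of early life 3 and 4, and the Plxna2 probe none with the brightest probe for each gene. In that comparison 1 member (Plxna4) and 92 probes passed; 0 members passed, with the number of probes in all in brackets, under median centring (4), probes well above background in all 12 channels (1), marked spots kept (8), array means (50), and without the array of control 1 and 2 (10) or of peripubertal 1 and 2 (89). Without an array block 6 of 34 members passed (1553), and without the array of early life 3 and 4, 5 of 31 (3216). Plxna4 is among them in both. Bracketed counts are out of at most 24605 kept probes. Leaving out 1 mouse gave 0 to 2 members and 8 to 1329 probes, the highest without early life 3. For early life minus control the main count was 0 members and 23 probes. Without an array block 2 of 35 members passed (775), Plxna4 among them. With marked spots dropped before scaling, an alternative added after seeing the data, 9 of 35 passed (3899), Plxna4 not among them. Leaving out the array of early life 1 and 2 gave 1 of 35 (177), Sema4c. Leaving out that of early life 3 and 4 gave 7 of 31 (2723), Plxna4 among them. Leaving out 1 mouse gave 0 to 1 (6 to 678). For peripubertal minus control, with 5 probes in all, no alternative gave a member, and 0 to 55 probes passed. Further alternatives gave 29 (quantile scaling) to 563 probes (marked spots dropped before scaling) in early life minus peripubertal with 1 member each, and 1 (median centring) to 61 probes (without the array of control 3 and 4) in early life minus control with 0. Dropping marked spots before scaling moved the median of all probes to 0.17 in early life minus peripubertal, 0.29 in early life minus control and 0.13 in peripubertal minus control, and median centring moved it to 0.13 and 0.12 in the comparisons with control. Deviations of same-numbered mice correlated between -0.18 and 0.13. With so few mice a group, this cannot show whether the replicate numbers pair the mice, and the main model does not pair them. With the replicate block, 0 members passed in each comparison, with 9, 12 and 0 probes in all. The cause of these changes was not tested. Missing spots, 2 arrays a group and the dim second probe of Plxna4 limit what can be said of single genes.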
